A study of Mus musculus with 5 samples.

Results

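Marrow at 7 days after irradiation (DAI) was compared with marrow at 3 DAI, with 1 array for each time, so 2 of the 5 arrays of the series carry the comparison. The mice were BALB/c males aged 7 to 8 weeks, given 1 total body dose of 4 Gy of gamma-rays and killed at 3, 7, 11 or 21 DAI, or sham-irradiated (0 DAI). Total marrow cells of both tibias were used without sorting. The methods give 6 to 8 mice per time for collecting cells but speak of RNA from 4 irradiated animals and 1 sham animal, so whether an array holds a pool or 1 animal is not settled. All genes with a probe of a single gene symbol entered, 19057 in all, each read by its brightest probe on an Illumina MouseWG-6 BeadChip. Signals under 64 were raised to 64, called the floor here, and 8471 genes had at least 1 of the 2 signals above it. The ratio of 7 DAI to 3 DAI was taken as log2, so that 1 is a doubling. With no replicate array at either time, no value has an error and no p-value was computed. Higher and lower are calls of size only, from 2-fold upwards. Where 5 signals are listed for a gene, they stand in the order of the arrays, 0, 3, 7, 11 and 21 DAI, and a number in parentheses after signals is the log2 ratio of 7 DAI to 3 DAI.

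After a sublethal dose of radiation, dividing blood progenitors die within hours to days, and the marrow is refilled by stem and progenitor cells that survive in the bone. Cells that divide seldom, such as fibroblast-like stromal cells, fat cells, bone cells and resident macrophages, outlast most of the blood-forming cells. Red cell precursors, developing B cells and granulocytes return in waves, each with its own order of gene activity, such as the early and late granule proteins of neutrophils.

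By this rule 604 genes were higher at 7 DAI than at 3 DAI, which is 7.13% of the genes with a ratio, and 514 genes (6.07%) were lower. The median log2 ratio over all genes was -0.03, with quartiles of -0.40 and 0.38, and 67.5% of genes lay within 1.5-fold. The lower side held the larger differences, with 94 genes lower and 51 higher at a rule of 4-fold, and 35 lower and 4 higher at a rule of 8-fold. For 954 genes 1 of the 2 signals was under the floor, so that their ratio is a bound, and 150 of the lower and 81 of the higher genes were of this kind. Among the 7517 genes above the floor on both arrays, 523 were higher (6.96%) and 364 were lower (4.84%). The 2 arrays had the same mean signal of 535.7, and 30.5% and 29.8% of all probes above the floor.

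**Figure D1:**
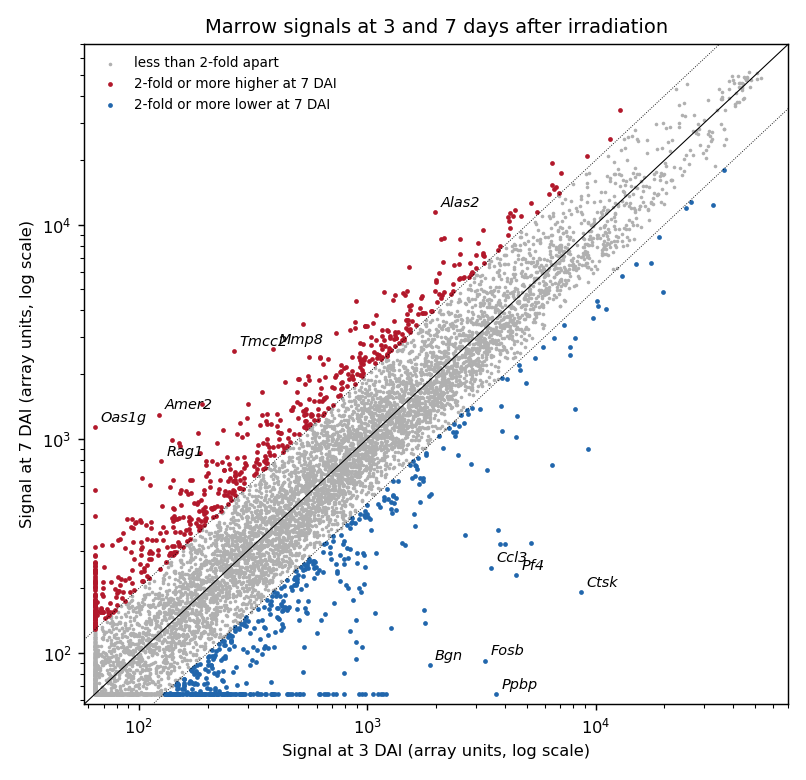
Signal of each of the 8471 genes at 3 DAI (horizontal) and 7 DAI (vertical), in array units on log scales, with signals under 64 drawn at 64. Red points are the 604 genes at least 2-fold higher at 7 DAI, blue points the 514 at least 2-fold lower, the solid line marks equal signals and the dotted lines 2-fold. Ppbp, Ctsk and Fosb lie farthest below the line.

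Where a gene had a further probe above the floor on both arrays, that probe gave a check that does not need a replicate array, although it reads the same RNA. Over 2456 such genes the 2 log2 ratios correlated at r = 0.74 across genes, which are not independent replicates. Of 160 genes called higher, 150 had a further probe with a ratio above 0 and 86 had one that was itself at least 2-fold higher, against 6.68% of all further probes. Of 69 called lower, 66 had a further probe below 0 and 33 had one at least 2-fold lower, against 3.62%. For none of these genes was the further probe 2-fold or more in the opposite direction.

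The genes were then read in 45 lists by cell type or function, some of which share members. The lists hold 1035 genes that the arrays name, of which 810 gave a ratio, while the other 225 were under the floor on both arrays. A dim gene enters only through the array on which it is bright, so medians that rest mostly on bounds are given again for the members measured on both arrays. Counts of called members below stand against 7.13% higher and 6.07% lower among all genes with a ratio. The medians ran from -2.09 for stromal proteoglycan and matricellular genes to 1.09 for red cell membrane and globin genes. In the order of medians, matrix, chemokine, bone, platelet, macrophage and lymphocyte effector lists lay at the low end, and red cell, B precursor and late neutrophil granule lists at the high end. A list of 15 commonly used reference genes had a median of -0.00 and no member past 2-fold.

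**Figure D2:**
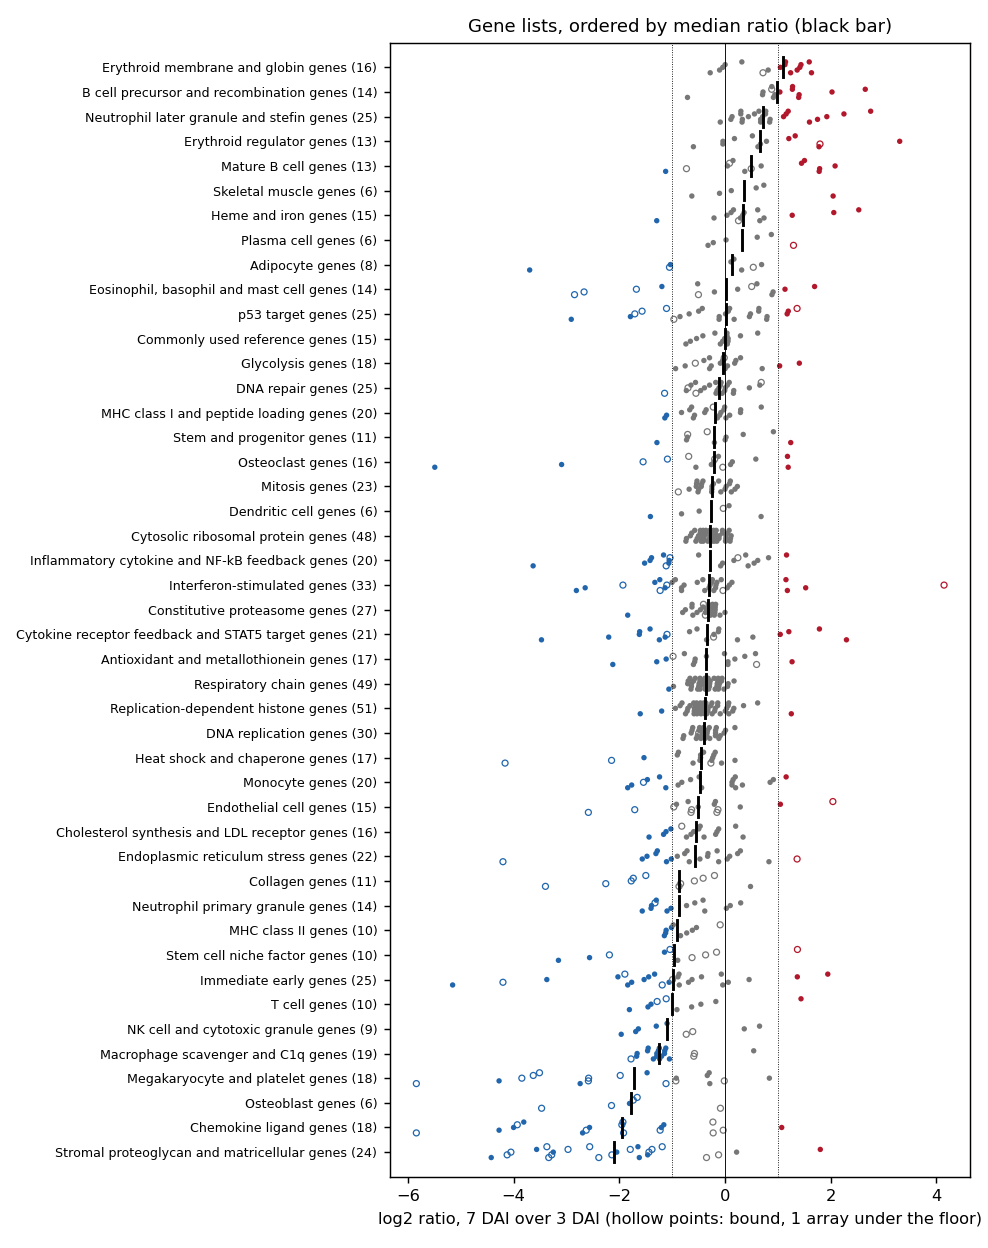
Log2 ratio of 7 DAI to 3 DAI for the members of 45 gene lists, ordered by their median (black bar), with the number of members that have a ratio in parentheses. Red and blue points are 2-fold or more higher and lower, hollow points are bounds, and the stromal, chemokine, osteoblast and platelet lists have medians below -1.7 while the red cell membrane list has one of 1.09.

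Genes of the supporting stroma were lower at 7 DAI as a group. Among 24 genes of stromal proteoglycans and matricellular proteins with a ratio, 20 were lower (against 6.07% of all genes) and 1 was higher, with a median log2 ratio of -2.09. For 15 of them 1 of the 2 signals was under the floor, 5 further listed genes were under it on both arrays, and the 9 measured on both arrays had a median of -1.65. Each array was scaled to the same mean signal, so a signal is a share of the RNA and not a count of cells. The paper reports that counts of nucleated marrow cells were lowest at the earlier time and rose afterwards. In whole marrow, fewer cells of a type, less RNA per cell and more RNA from other cells cannot be told apart, here or in any list below. Bgn, the matrix proteoglycan biglycan, had signals of 122, 1874, 87.3, 84.2 and 26.1 at 0, 3, 7, 11 and 21 DAI, a log2 ratio of -4.42. Igfbp7, a secreted protein that binds insulin-like growth factors, had 338, 3798, 321, 256 and 321, a log2 ratio of -3.56. Both stood out at 3 DAI alone, and at 7 DAI lay below the sham array. Sparc, the collagen-binding osteonectin, went from 1115 to 48.4, and Tnc, the matrix protein tenascin C, from 1061 to 27.2, which gives log2 ratios of at most -4.12 and -4.05. Mmp14, a membrane-bound matrix protease, went from 894 to 94, a log2 ratio of -3.25. The exception was Timp2, an inhibitor of matrix proteases, which rose from 674 to 2356, a log2 ratio of 1.81. For 22 of the 24 genes the 3 DAI signal was the highest of the 5 arrays, against 23.6% of all genes with a ratio. That count partly follows from the floor, since a dim gene enters only through the array on which it is bright. The list's summed signal was 36190 at 3 DAI and 11635 at 7 DAI, against 11983 at 0 DAI. Serpinf1, an anti-angiogenic serpin in this list, was lower by its brightest probe (log2 ratio -1.62) but not by the other one (0.15).

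Collagen genes were dim. A further 8 were under the floor on both arrays, and of 11 with a ratio, 5 were lower, led by Col6a1, which went from 674 to 20.9 (log2 ratio at most -3.40), and Col4a1, a basement membrane collagen, from 306 to 21.9 (at most -2.26). Col1a1, the main fibrillar collagen of bone, read 213 at 3 DAI and 4.06 at 7 DAI. The list's median of -0.87 rests on bounds for 10 of the 11, and the 1 gene measured on both arrays, Col5a1, had a log2 ratio of 0.47.

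Among factors by which the stroma holds stem cells, 10 had a ratio, 5 of these were lower and 1 was higher, and 11 were under the floor at both times. The median was -0.97, and -1.85 over the 4 measured on both arrays. Cxcl12, the chemokine that retains stem cells in the marrow, had signals of 1252, 8167, 1382, 1209.8 and 687 at 0, 3, 7, 11 and 21 DAI, a log2 ratio of -2.56. Of its other probes, 3 gave log2 ratios of at most -3.69, -3.36 and -0.65. Gas6, the ligand of the Axl family of receptors, went from 946 to 106 (-3.15). Vcam1, an adhesion molecule of stromal cells and macrophages, went from 4653 to 2106 (-1.14). The higher gene was Hgf, hepatocyte growth factor, with a log2 ratio of at least 1.37. Kitl, the ligand of the Kit receptor, and Lepr, a receptor that marks marrow stromal cells, were under the floor on both arrays. Gja1, the gap junction protein connexin 43, which joins stromal and bone cells, had 393, 3723, 373, 513 and 154, a log2 ratio of -3.32.

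The largest measured difference on either side was that of Ctsk, which encodes cathepsin K, the protease by which osteoclasts dissolve bone matrix. Its signals were 87, 8628, 192, 289.5 and 6 at 0, 3, 7, 11 and 21 DAI, a log2 ratio of -5.49, or 45-fold lower at 7 DAI. Ctsk was bright on the 3 DAI array and dim on the other 4. Ckb, the brain-type creatine kinase that osteoclasts also express, had a similar course, with 754, 6457, 757, 686 and 532 and a log2 ratio of -3.09. The other osteoclast genes did not move as one. Of 16 with a ratio, 4 were lower and 2 higher, with a median of -0.20. Among the higher ones, Mmp9, a gelatinase that neutrophils also make, rose from 9187 to 21079 (1.20). Nfatc1, the transcription factor that drives osteoclast formation, had 861 and 1956 by its brightest probe (1.18), while its other measured probes gave 0.89, 0.87 and -0.35. Osteoblast genes were few and dim, with 13 of 19 under the floor on both arrays and 5 of the other 6 lower. Their median was -1.77, and only Alpl was above the floor on both arrays. Bglap2, a gene of osteocalcin, the bone matrix protein of mature osteoblasts, went from 709 to 20.7 (log2 ratio at most -3.47). Its near-identical copies can share probe signal. Alpl, the alkaline phosphatase of mineralizing bone, went from 242 to 69 (-1.81).

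Fat cell genes were divided. Adipoq, the hormone adiponectin, had 89, 1788, 138, 80.5 and 105 at 0, 3, 7, 11 and 21 DAI, a log2 ratio of -3.70, and was high only at 3 DAI. Lpl, lipoprotein lipase, went from 2399 to 1174 (-1.03), and Pparg, the master regulator of fat cells, from 132 to 9.08 (at most -1.05). The other 5 of the 8 adipocyte genes with a ratio lay above 0 and under 2-fold, which set the median at 0.14.

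**Figure D3:**
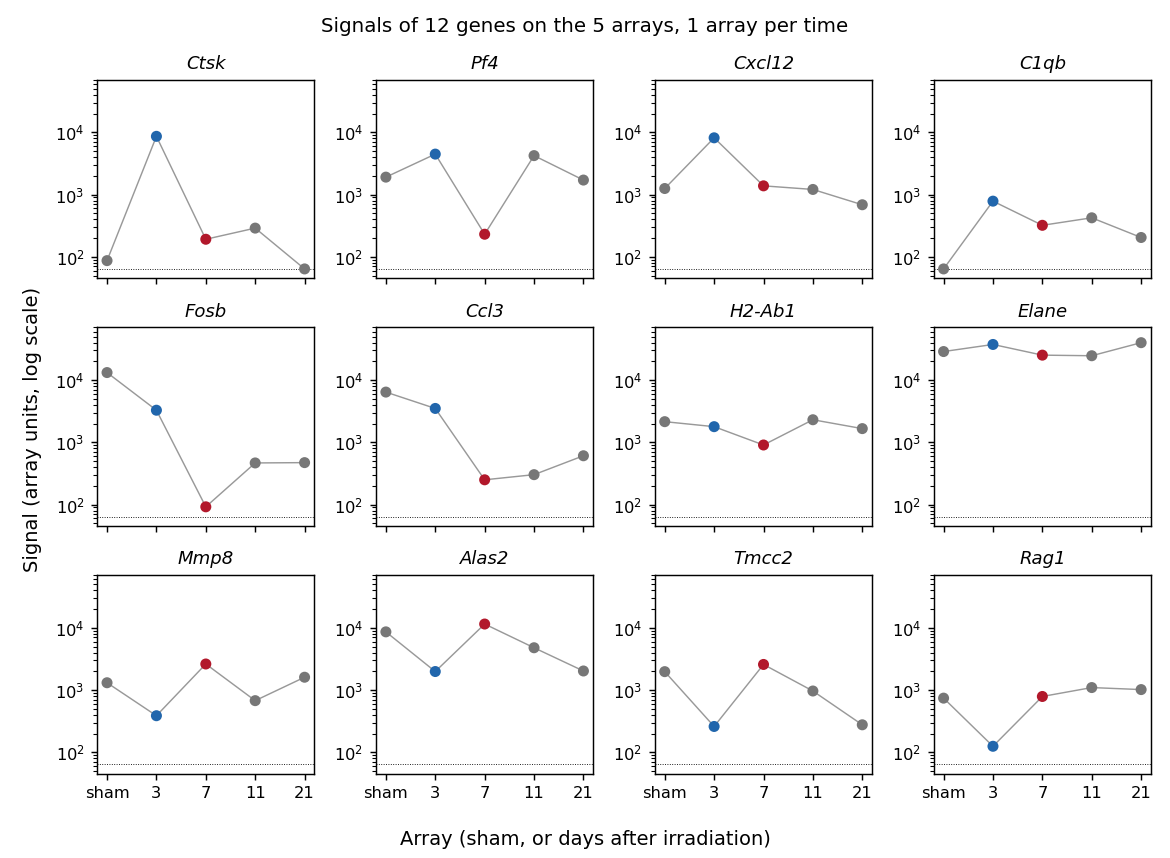
Signals of 12 genes on the 5 arrays, in array units on a log scale, with 1 point per array, the 3 DAI array in blue, the 7 DAI array in red and values under the dotted line of 64 drawn on it. Ctsk and Cxcl12 stand out at 3 DAI, Pf4, Fosb and H2-Ab1 are lowest at 7 DAI, and Mmp8, Alas2 and Tmcc2 are highest at 7 DAI.

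Platelet and megakaryocyte genes were lower at 7 DAI, 11 of 18 by 2-fold or more (against 6.07% of all genes) and none higher. Their median was -1.73. Ppbp and Pf4 encode chemokines that platelets store in their alpha granules. Pf4 (platelet factor 4) had signals of 1908, 4471, 231, 4228 and 1712 at 0, 3, 7, 11 and 21 DAI, a log2 ratio of -4.28. Ppbp had 138, 3669.9, 54, 613 and 591, a log2 ratio of at most -5.84, and a further probe of Ppbp gave at most -5.45. For both genes 7 DAI was the lowest of the 5 arrays. Tubb1, the tubulin of the platelet rim, went from 791 to 51.8 (at most -3.63), and Gp5, a subunit of the receptor for von Willebrand factor, from 842 to 126 (-2.74). The members varied in brightness, since 10 of the 18 were under the floor on 1 array, and the 8 measured on both had a median of -0.63 with 3 lower. Cd9, a tetraspanin of platelets and many other cells, had 4031 and 7225 (0.84). Of the 18 members, 12 were highest at 3 DAI and 11 were lowest at 7 DAI, against 23.6% and 19.5% of all genes. Part of this follows from the floor, since a gene dim on 1 array enters only through the other. Tubb6, another tubulin gene, went from 1274 to 131 (-3.28).

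Resident macrophage genes were lower by similar amounts. Of 19 genes with a ratio, 16 were lower (against 6.07% of all genes) and none higher, with a median of -1.24. At 3 DAI 18 were highest of the 5 arrays, against 23.6% of all genes. C1qa, C1qb and C1qc encode the 3 chains of C1q, which starts the classical complement cascade. C1qb had 40.3, 785, 321, 424 and 205 at 0, 3, 7, 11 and 21 DAI, a log2 ratio of -1.29, and C1qa and C1qc had log2 ratios of -1.26 and -1.24. Axl, a receptor by which macrophages take up dying cells, had 247, 2138, 905, 565 and 394 (-1.24), and Fcna, a lectin of the complement system, had 23, 1681, 614, 339 and 445 (-1.45). Unlike Bgn and Igfbp7, the C1q genes, Axl and Fcna were still above the sham array at 7 DAI. The member with the opposite sign was Slc40a1, ferroportin, which exports the iron of digested red cells, with 8199 and 11963 (0.55). Monocyte genes were mixed, with 6 of 20 lower and 1 higher. Cd14, a receptor for bacterial lipopolysaccharide, went from 1597 to 446 (-1.84) and Ccr2, the receptor by which monocytes leave the marrow, from 236 to 109 (-1.12), whereas Fcgr4, an IgG receptor also found on neutrophils, rose from 3226 to 7206 (1.16).

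Chemokine ligands from several kinds of cell were lower, 14 of 18 by 2-fold or more, against 6.07% of all genes. Their median was -1.94 (-2.63 over the 8 measured on both arrays). At 7 DAI 11 of the 18 were at their lowest of the 5 arrays, against 19.5% of all genes. Ccl3 and Ccl4, macrophage inflammatory proteins, had signals of 6409, 3499.6, 249.9, 302 and 608 at 0, 3, 7, 11 and 21 DAI for Ccl3 and 4378, 5198, 325, 759 and 493 for Ccl4. Their log2 ratios were -3.81 and -4.00. For Ccl3 the sham array was higher than any array after irradiation, and for Ccl4 the sham and 3 DAI arrays were both well above the other 3. Cxcl2, which attracts neutrophils through Cxcr2, went from 976 to 12.7 (at most -3.93). The exception was Ccl6, a chemokine of myeloid cells, which rose from 583 to 1229 (1.08).

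The mRNAs of immediate early genes appear within minutes of a stimulus and also during handling of cells. Of 25 such genes 12 were lower (against 6.07% of all genes) and 2 higher (against 7.13%), with a median of -0.99. Fosb, a subunit of the transcription factor AP-1, had 13195, 3277, 92, 466 and 472 at 0, 3, 7, 11 and 21 DAI, a log2 ratio of -5.15. Egr1, a zinc finger factor of growth signals, had 31194, 9248, 893, 4544 and 2909.5 (-3.37), and Fos had 37943, 19782, 4859.8, 5074 and 8852 (-2.03). All 3 were highest in the sham array and fell again between 3 and 7 DAI. The stress factor Atf3 went from 1178 to 28 (at most -4.20). Against this direction, Ier2, an early response gene, rose from 196 to 755 (1.95) and Fosl2, an AP-1 subunit of the Fos family, from 1165 to 3012 (1.37). The list's summed signal went from 231400 in the sham array to 110730 at 3 DAI and 54980 at 7 DAI. Other genes with large bounds, Rgs1 and Hspa1a, were also bright in the sham array. Rgs1, a brake on chemokine receptor signaling, had 1195, 1207, 24.3, 145 and 73.1 (at most -4.24), and Hspa1a, an inducible heat shock protein whose copy Hspa1b is nearly identical, had 8686, 1146, 28.1, 915 and 272 (at most -4.16).

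In the list of inflammatory cytokines and NF-kB feedback genes, 9 of 20 were lower (against 6.07% of all genes) and 1 higher. Cd69, an early activation marker of lymphocytes, had 5653, 4009.9, 324, 1049 and 614 at 0, 3, 7, 11 and 21 DAI (-3.63). Osm, the cytokine oncostatin M, went from 9788 to 3665 (-1.42), Il1b, interleukin 1 beta, from 4605 to 2206 (-1.06), and Tnf from 495 to 221 (-1.16). The single higher member was Il1rn, the natural antagonist of the interleukin 1 receptor, from 374 to 839 (1.17).

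Genes of T and NK cells were lower in part. Among T cell genes 5 of 10 were lower, against 6.07% of all genes, with a median of -1.01. Of the 8 measured on both arrays 3 were lower, with a median of -0.77. Examples of lower genes were Cd3g, a chain of the T cell receptor complex, from 347 to 99.2 (-1.81), and Thy1 from 817 to 309.9 (-1.40). Cd3d, another chain of the same complex, went the other way, from 3044 to 8263 (1.44). Cd8b1 read 6023 and 5347 (-0.17). The summed signal of the T cell list was 12094 at 3 DAI and 15086 at 7 DAI. Of 9 NK cell and cytotoxic granule genes 5 were lower (against the same 6.07%) and none higher. Ctsw, a protease of cytotoxic cells, went from 808 to 207 (-1.96), while Prf1, the pore-forming perforin, had 3546 and 5586 (0.66).

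MHC class II genes, which present peptides to helper T cells, were lowest of the 5 arrays at 7 DAI in all 10 cases with a ratio. Over all genes with a ratio, 19.5% had their lowest signal there. H2-Ab1, the beta chain of the I-A molecule, had 2146, 1784, 906, 2304 and 1659.8 at 0, 3, 7, 11 and 21 DAI, a log2 ratio of -0.98, just under 2-fold. H2-Eb1, the beta chain of I-E, had 2496, 1817, 840.3, 3843 and 1738 (-1.11), and Cd74, the invariant chain that escorts class II molecules, had 8045, 5858, 2692, 11663 and 7297 (-1.12). In total 4 of the 10 were past 2-fold, and the median was -0.91. Of class I genes, the light chain gene B2m read 27642 and 27557. Among class I and peptide loading genes 2 of 20 were lower, against 6.07% of all genes. Psmb10, a subunit of the immunoproteasome that cuts peptides for class I, went from 4103 to 1908 (-1.10, and -0.84 by a further probe).

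Interferon-stimulated genes had members at both extremes. Of 33 with a ratio, 8 were lower and 4 higher, with a median of -0.30. Oasl2, an oligoadenylate synthetase-like protein, had 264, 1079.6, 154, 9454 and 254 at 0, 3, 7, 11 and 21 DAI (-2.81), and Ifit3, which binds viral RNA complexes, had 169, 891, 142, 4595 and 89.5 (-2.65), with a further Ifit3 probe at -1.17 or lower. Oas1g, an oligoadenylate synthetase gene with close copies beside it, had 31.3, -12.6, 1136, 6853 and 1352, a log2 ratio of at least 4.15, and a further probe gave at least 2.84. Rsad2, the antiviral enzyme viperin, rose from 2059 to 5944 (1.53). All 4 genes were at their highest at 11 DAI, so that Oasl2 and Ifit3 were low between 2 higher arrays while Oas1g and Rsad2 were already up at 7 DAI. The interferon-stimulated response element is the promoter sequence bound by factors that interferon activates. The letters TTTC, any 2 bases and TTTC again, searched on both strands, occurred in the RefSeq promoter window (250 bases before to 50 after the start, GRCm38.p6) of 16 of the 26 listed genes that have one, against 3.99% of all genes. The windows of Ifit3 (chr19:34583279-34583578, plus strand) and Oas1g (chr5:120887564-120887863, minus strand) are shown because both hold these letters, in capitals, although the genes moved in opposite directions. Both are printed in the direction of the gene. Ifit3 has 2 matches, and Oas1g has 2 overlapping ones on the complementary strand. A match is a description of the letters and not a binding site that was measured.
Ifit3: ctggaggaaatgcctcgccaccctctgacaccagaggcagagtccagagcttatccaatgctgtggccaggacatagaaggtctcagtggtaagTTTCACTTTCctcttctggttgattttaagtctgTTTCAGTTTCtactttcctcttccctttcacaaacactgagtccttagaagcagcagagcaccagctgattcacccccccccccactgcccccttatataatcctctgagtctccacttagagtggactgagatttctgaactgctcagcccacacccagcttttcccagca
Oas1g: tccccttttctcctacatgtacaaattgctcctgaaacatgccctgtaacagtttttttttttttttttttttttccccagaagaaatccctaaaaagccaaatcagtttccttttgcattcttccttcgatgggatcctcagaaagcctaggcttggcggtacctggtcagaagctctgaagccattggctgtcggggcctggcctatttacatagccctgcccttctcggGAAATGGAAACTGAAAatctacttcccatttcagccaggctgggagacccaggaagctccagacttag

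Targets of cytokine receptors were divided too. Cytokines such as erythropoietin and thrombopoietin act through the factor STAT5, which switches on inhibitors of its own pathway. Cish and Socs3 are such inhibitors. Cish had 70.1, 741, 242, 272 and 105 at 0, 3, 7, 11 and 21 DAI, a log2 ratio of -1.61, and Socs3 had 525, 1470.3, 320.1, 735 and 598 (-2.20). Both were highest at 3 DAI. Errfi1, a feedback inhibitor of the EGF receptor, had 108, 1764, 159, 134 and 124 (-3.47), and Ccnd1, cyclin D1, went from 492 to 160.1 (-1.62). Bcl6, a transcriptional repressor of lymphoid and myeloid cells, had 1174, 889, 4383, 1353 and 2902 and rose by 2.30 on the log2 scale, and Bcl2l1, which encodes the survival protein Bcl-xL, rose from 182 to 420.5 (1.21). Id2, an inhibitor of bHLH factors, was higher by its brightest probe (1.79) but had 0.50 and 0.11 by the others. In total 8 of 21 genes of this list were lower and 4 higher. The STAT motif TTCNNNGAA, which reads alike on both strands, was in the window of 4 of 14 listed genes, Socs3, Cish, Csf2rb2 and Bcl6, against 9.55% of all genes. The Cish window (chr9:107296409-107296708, plus strand) is shown since it holds 2 matches, in capitals, at the start of transcription.
Cish: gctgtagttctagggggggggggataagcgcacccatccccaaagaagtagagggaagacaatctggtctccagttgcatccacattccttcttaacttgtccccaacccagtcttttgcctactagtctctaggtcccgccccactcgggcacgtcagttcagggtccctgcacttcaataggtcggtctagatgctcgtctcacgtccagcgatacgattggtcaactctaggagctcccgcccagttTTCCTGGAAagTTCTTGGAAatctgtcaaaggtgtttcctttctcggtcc

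On the higher side, the neutrophil genes split by the stage at which they act. Primary granules form in promyelocytes, and the secondary and tertiary granules form later as the cells mature. Of 14 primary granule and promyelocyte genes, 7 were at least 2-fold lower (against 6.07% of all genes) and none higher (median -0.87). The lowest of the 14 was Calr, a chaperone of the endoplasmic reticulum, at -1.56. Of 25 later granule and stefin genes, 8 were higher (against 7.13% of all genes) and none lower (median 0.71). In this list 24 lay above 0, and 20 had their highest signal of the 5 arrays at 7 DAI, against 23.6% of all genes. Not every member encodes a granule protein, and the later list also holds Padi4 and Cxcr2. Ctsg, cathepsin G of the primary granules, had 16871, 32584, 12441, 22600 and 26192 at 0, 3, 7, 11 and 21 DAI, a log2 ratio of -1.39. Prtn3, proteinase 3, had 24778, 36454, 17967, 26187 and 32716 (-1.02), and Ms4a3, a membrane protein of granulocyte progenitors, had 8464, 17547, 6655, 9724 and 13788 (-1.40). All 3 were highest at 3 DAI. Mmp8, neutrophil collagenase, had 1309, 387, 2618, 675 and 1605, a log2 ratio of 2.76. Padi4, the enzyme that citrullinates histones, had 192, 88.9, 424, 113 and 341 (2.25), and Cxcr2, the receptor that draws mature neutrophils from the marrow, had 2249.8, 1429, 4819, 2365 and 3534 (1.75). All 3 were highest at 7 DAI and lowest, or nearly so, at 3 DAI. The brightest genes of both lists, Mpo, Lcn2, Ltf and Ngp, read between 42412 and 51806 on the 2 arrays. The highest signals of any probe there were 53224 and 51806, so these probes had little room to differ upwards. Dimmer probes of Mpo and Ltf did differ, each in the direction of its own list. Those of Mpo, the myeloperoxidase of primary granules, went from 29273 to 9969 (-1.55) and from 16681 to 6244 (-1.42), and that of Ltf, the lactoferrin of secondary granules, from 5129 to 12501 (1.29). Pram1, an adaptor protein of the granulocytic line, rose from 182 to 1068 (2.55), and Tlr5, the receptor for flagellin, from 31.3 to 287 (at least 2.16).

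**Figure D4:**
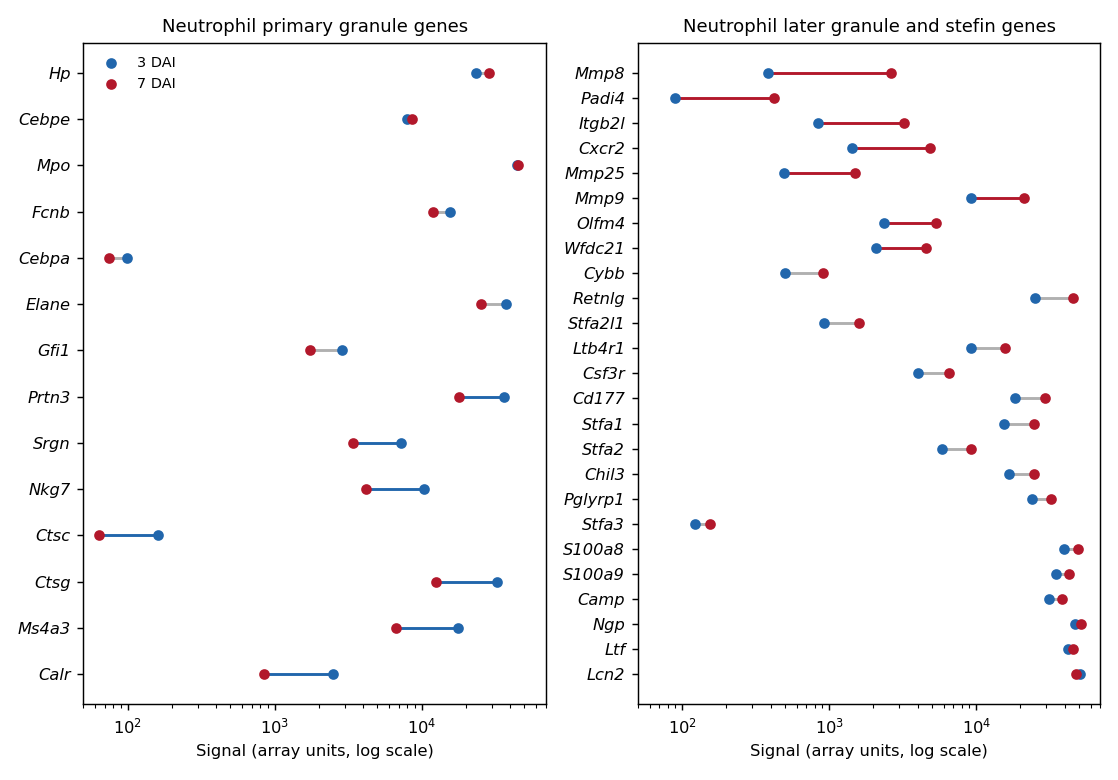
Signals at 3 DAI (blue) and 7 DAI (red) of 14 primary granule and 25 later granule and stefin genes, in array units on a log scale, with blue and red lines for differences of 2-fold or more. The 7 primary genes with blue lines moved left, that is, were lower at 7 DAI, and 24 of the 25 later genes lay to the right of their 3 DAI signal.

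Of 14 eosinophil, basophil and mast cell genes, 4 were lower and 2 higher, with a median of 0.02. For 5 of the 14 the ratio is a bound. Of the 9 measured on both arrays, 1 was lower and 2 were higher, with a median of 0.61. Epx, eosinophil peroxidase, went from 406 to 55.4 (at most -2.67) and Prg2, the major basic protein of eosinophil granules, from 5433 to 2376 (-1.19). Within the Ear family of eosinophil-associated ribonucleases, Ear6 was lower (at most -2.85) while Ear3 and Ear10 were higher (1.14 and 1.70). These genes are close copies of each other, so which copy a probe read is uncertain.

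Genes of red cell precursors were higher at 7 DAI. Of 16 membrane and globin genes with a ratio, 9 were higher (against 7.13% of all genes) and none lower, with a median of 1.09. Slc4a1, the anion exchanger band 3, had 26914, 12743, 34587, 17766 and 7286 at 0, 3, 7, 11 and 21 DAI, a log2 ratio of 1.44, and Ank1, which ties the membrane to its skeleton, rose from 378 to 1179 (1.64). The adult globins Hba-a1, Hbb-bs and Hbb-bt read between 42768 and 47495, near the top of the scale, with ratios between -0.10 and 0.00, and the globin genes are near-identical copies. Dimmer probes of both Hbb genes read higher at 7 DAI. For Hbb-bs 1 such probe went from 11162 to 26816 (1.26) and another gave 0.67, and for Hbb-bt the dimmest probe went from 635 to 2736 (2.11). Alas2, the first enzyme of heme synthesis in red cell precursors, had 8594, 1981, 11478, 4775 and 2022, a log2 ratio of 2.53. Slc25a37, mitoferrin, which brings iron into mitochondria, had 3950.0, 1523, 6355, 2482 and 1766 (2.06), and Fech, which inserts the iron into heme, rose from 191 to 461 (1.27, and 0.51 by a dimmer probe). In the heme and iron list 3 of 15 were higher. The 1 lower member was Hmox1, which breaks heme down and is also a macrophage gene, from 426 to 174 (-1.29). Tmcc2, a membrane protein gene placed among the erythroid regulators, had 1973, 259.7, 2575, 964 and 276 (3.31), and Trim10, a protein of terminal red cell maturation, rose from 979 to 3366 (1.78). The lineage factors themselves stayed within 2-fold, Klf1 with 1779.9 and 2745 (0.63), Gata1 with 208 and 138 (-0.60), and Epor, the erythropoietin receptor, with 219 and 349.8 (0.67). All of Slc4a1, Alas2, Slc25a37 and Tmcc2 were lower at 3 DAI than in the sham array and higher than it at 7 DAI.

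The GATA motif AGATAA, the sequence that Gata1 binds, was found on either strand in the window of 7 of 11 erythroid regulators, 2 of 11 heme and iron genes, 3 of 12 membrane and globin genes and 5 of 16 platelet genes, against 12.7% of all genes. Both Alas2, which was higher, and Pf4, which was lower, hold it. The Alas2 window (chrX:150547167-150547466, plus strand) is shown with the match, on the complementary strand, in capitals.
Alas2: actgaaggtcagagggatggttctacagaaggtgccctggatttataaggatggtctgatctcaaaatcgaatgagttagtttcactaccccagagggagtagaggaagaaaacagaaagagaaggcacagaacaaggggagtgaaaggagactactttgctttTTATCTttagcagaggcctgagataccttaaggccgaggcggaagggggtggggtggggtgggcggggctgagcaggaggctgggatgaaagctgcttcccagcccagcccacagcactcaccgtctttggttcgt

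Genes of B precursors were higher as well, and those of mature B cells in part. Of 14 B precursor and recombination genes, 7 were higher (against 7.13% of all genes) and none lower, with a median of 0.99. Rag1, which cuts the immunoglobulin genes for recombination, had 741, 125, 788, 1095 and 1016 at 0, 3, 7, 11 and 21 DAI, a log2 ratio of 2.66. Igll1 and Vpreb1 form the surrogate light chain of pre-B cells. Igll1 had 2326, 4445, 11704, 3425 and 4000.1 (1.40) and Vpreb1 had 1258, 2880.2, 5927, 1765 and 1880.0 (1.04), and for both the 7 DAI array was the highest of the 5, with 3 DAI next. Vpreb3 had 9405, 2112, 8611, 12425 and 11206 (2.03), so that it differed from these by a low signal at 3 DAI. Ebf1, a factor that commits cells to the B lineage, was higher by its brightest probe (1.28) and had 0.25 by another. Among 13 mature B cell genes 5 were higher and 1 lower. Cd72, a coreceptor of B cells, had 5569.6, 434, 1844, 6552 and 5678 (2.09), Fcrla, an Fc receptor-like protein of B cells, had 6816, 1090.3, 3779, 8766 and 7827 (1.79) and Blk, a B lymphoid kinase, went from 289 to 819.8 (1.51, and 0.81 by a further probe). At 7 DAI these 3 were still below the sham array. In the list 11 of the 13 genes had their lowest signal of the 5 arrays at 3 DAI, against 17.4% of all genes. The lower member was Cd74, given above with class II. Of 6 plasma cell genes 1 was higher (against 7.13% of all genes) and none was lower. The higher one was Slamf7, an adhesion receptor, with a bound of at least 1.30. The 5 measured on both arrays had a median of 0.02, and Xbp1, the factor that drives antibody secretion, read 5434 and 4355 (-0.32).

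**Figure D5:**
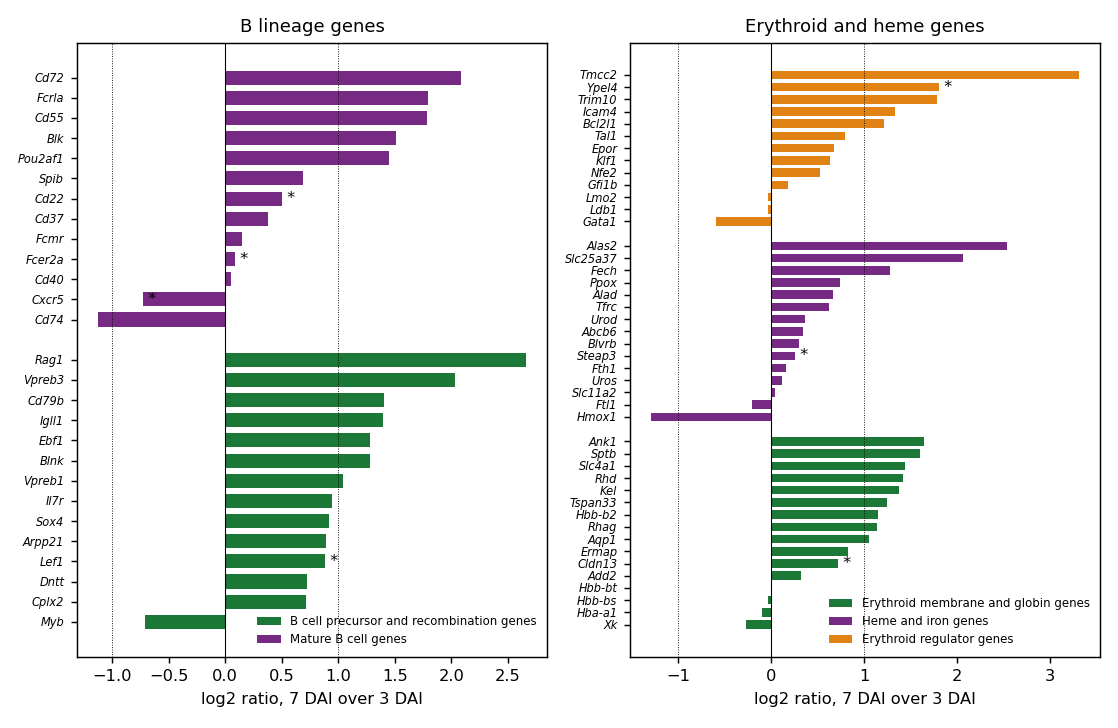
Log2 ratio of 7 DAI to 3 DAI for the B lineage genes (left) and the red cell and heme genes (right) that have a ratio, grouped by list, with dotted lines at 2-fold and asterisks on bounds. Rag1 leads the B precursor genes at 2.66 and Tmcc2 the red cell genes at 3.31, while Cd74 and Hmox1 are the members below -1.

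Several of the highest ratios belonged to genes of none of these lists. Amer2, a regulator of Wnt signaling, had 377, 123, 1295, 164 and 539 at 0, 3, 7, 11 and 21 DAI, a log2 ratio of 3.40, the largest measured rise. Nt5e, the CD73 enzyme that makes adenosine outside cells, had 632, 188, 1450.2, 172 and 665 (2.95), and Ifnlr1, a chain of the receptor for interferon lambda, had 950.0, 521, 3434, 797 and 1995 (2.72). Lhx1, a homeobox factor, had 371, 139, 989, 49.4 and 229 (2.83). On all 4, 7 DAI was the highest array. Further probes of Amer2, Nt5e and Lhx1 gave log2 ratios of at least 2.18, 2.28 and 1.93. Rsph9, a gene of the radial spokes of cilia, had 1151, 151, 952, 919 and 1143 (2.66) and was low at 3 DAI alone. Krt86, Rab5b, Arhgap24 and Zfhx3 had log2 ratios of 2.66, 2.61, 2.44 and 2.28. Sema4f, Erich2, Gm26588 and Ifit1bl1 were under the floor at 3 DAI and had log2 ratios of at least 3.17, 2.77, 2.29 and 2.14. On the lower side 1110017D15Rik, a gene of unnamed function in these files, had 792, 794, 80.6, 220.4 and 137 (-3.30).

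Genes of the DNA damage response had no common direction. Of 25 targets of p53, the factor that radiation activates, 5 were lower and 3 higher, with a median of 0.01. Cdkn1a, the cell cycle inhibitor p21, had 584, 2669, 355, 246 and 281 at 0, 3, 7, 11 and 21 DAI, a log2 ratio of -2.91, and 2 further probes gave at most -3.34 and -2.26. Plk3, a stress-activated kinase, went from 905 to 262 (-1.79). Trp53inp1 and Rrm2b, a stress-induced p53 partner and a nucleotide reductase for repair, were higher (1.18 and 1.20). Mdm2, which degrades p53, read 2099.5 and 3279.9 (0.64) by its brightest probe, while a further one went from 1383.6 to 2880.5 (1.06). None of 30 DNA replication genes and none of 23 mitosis genes was past 2-fold in either direction, yet 28 of the replication genes lay below 0, with a median of -0.39. Mcm5, a subunit of the replicative helicase, read 11434 and 8136 (-0.49). Of 51 replication-dependent histone genes, 2 were lower and 1 higher, against 6.07% and 7.13% of all genes. Below 0 lay 41 of the 51, with a median of -0.38, and 28 had their lowest signal at 7 DAI, against 19.5% of all genes. These histone genes are near-identical copies. Their mRNAs mostly lack the poly(A) tail from which the RNA was copied.

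The tissue label was checked on marker genes. Granulocyte markers Mpo, Ltf, Camp and S100a8 read at least 31232 on both arrays, and the red cell marker Slc4a1 and the megakaryocyte marker Pf4 were above the floor on both. Of 19 skeletal muscle genes 13 were under the floor on both arrays, Acta1 and Ckm among them, and the other 6, such as Mylpf with 123 and 185, were above it on both. The summed signal of the muscle list was 1058 and 1425. Of 27 endothelial genes 15 had a ratio, and 12 of these lay below 0, with a median of -0.50. The list summed to 11996 and 15757. Egfl7, a secreted protein of endothelial cells, read 1289 and 1122, Pecam1, which platelets and leukocytes also carry, 316 and 222, and Cdh5, the cadherin of endothelial junctions, 70.1 and 27.4. The stem and progenitor list had 1 of 11 genes higher and 1 lower, against 7.13% and 6.07% of all genes. Its member Kit, the receptor for stem cell factor, read 1048 and 1064 (0.02).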

How the data were processed

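Total RNA of marrow was copied from an oligo(dT) primer to biotin-labelled cRNA and read on Illumina MouseWG-6 BeadChips. The deposited intensities are linear, background-subtracted signals that the authors scaled by average normalization in GenomeStudio (version 2010.2, per the submitters' processing notes). The handling of values below background was not stated in those sources. A non-normalized table with detection p-values (10 columns) went unused because no label ties its columns to samples. Of 45281 probes, 34885 had 1 gene symbol in the platform annotation, and 18 with several and 10378 unlisted were left out. Each gene was read by its probe with the highest mean over the 5 arrays. Signals were raised to a floor of 64, and a log2 ratio of 7 DAI to 3 DAI was formed where at least 1 signal exceeded it. Calls were made from a log2 ratio of 1 upwards or -1 downwards. With 1 array per time no test was run, although the methods name a t test, and the number of arrays limits the precision. The code that makes the calls was run on simulated signals with changes of known size. That checks the code and not the calls on these arrays, since no variation between mice entered.

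The genes compared and the 45 lists were chosen with earlier results of these data known. Genes to be named were the 15 highest and 15 lowest among those measured on both arrays, the 6 largest bounds each way, and of each list the 4 largest ratios and 4 brightest members. Only part of these 319 genes is printed above, and no rule for that further choice was set down. Outside the rule of 15, 6 and 4, Bcl2l1, C1qa, C1qb, C1qc, Ccl6, Ccnd1, Ccr2, Cish, Csf2rb2, Ebf1, Epor, Fcgr4, Fosl2, Gata1, Ier2, Il1rn, Kitl, Nfatc1, Rrm2b, Serpinf1, Tnf and Trp53inp1 were named after their values were seen, and Acta1, Camp, Cdh5, Ckm and Lepr as tissue markers. Promoter windows came from RefSeq (GRCm38.p6), with a window for 654 of 810 listed genes. Alternatives were quantile normalization, median scaling, floors of 100 and 32, a pseudocount of 50, the mean over probes, the brightest probe of the 2 arrays, genes above the floor on both arrays, and 3-fold and 1.5-fold rules. Python 3.11.15, numpy 2.4.6, pandas 2.3.3 and matplotlib 3.10.9 were used.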

Additional observations from a re-analysis of the deposited data

How the results depend on the processing

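No paired analysis was possible because each time has 1 array, and the replicate number 1 that all arrays share marks no pair. Counts of genes higher and lower were 604 and 514, against 610 and 481 after quantile normalization, 567 and 549 after median scaling, and 740 and 766 with a floor of 32. They were 369 and 330 with the mean over probes, 150 and 175 at 3-fold and 1460 and 1292 at 1.5-fold. Of 2507 values of 319 named genes under the 8 alternatives other than the fold rules, 2267 lay within 0.24 of the reported log2 ratio. That tolerance is 0.5 of the interquartile range of the difference between a gene's 2 brightest probes. Of the genes called higher or lower, 0 changed sign. Keeping only genes above the floor on both arrays leaves each ratio as it was, so 274 of the 2267 values test nothing. Of 360 list medians, 325 lay within the tolerance, 45 of them under median scaling, which could not move them past it. The other 35 follow. Main medians not printed above were 0.50 for mature B, 0.32 for plasma cell, -0.26 for dendritic and 0.36 for muscle genes.

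With the mean over probes, medians were 0.72 for B precursor, -0.44 for T cell, 0.79 for red cell membrane, -1.25 for platelet, -0.58 for collagen, -1.19 for stromal, -0.66 for niche, -1.40 for osteoblast, -0.18 for endothelial and 0.069 for muscle genes. Over genes above the floor on both arrays, they were 1.07 for mature B, 0.022 for plasma cell, -0.77 for T cell, -0.63 for platelet, 0.61 for eosinophil, 0.47 for collagen (1 gene), -1.65 for stromal, -1.85 for niche, -0.20 for endothelial and -2.63 for chemokine genes. A floor of 100 gave -0.63 for T cell, -1.47 for platelet, -1.83 for stromal and -1.27 for osteoblast genes. A floor of 32 gave -0.63 for T cell, -1.85 for collagen, -2.74 for stromal, -2.23 for osteoblast and -2.63 for chemokine genes. A pseudocount of 50 gave -0.57 for dendritic, -1.74 for collagen, -1.35 for niche, -2.18 for osteoblast and -2.38 for chemokine genes, and quantile normalization gave -0.52 for dendritic genes. Lists of dim genes moved with the floor because the floor sets the size of a bound.

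With 1 array per time, differences between mice and between arrays cannot be told apart from the days after irradiation. Dim genes have bounds only, and signals near the top of the scale, up to 53224, have little room to differ.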

Other observations

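Genes of basic metabolism and protein turnover moved little singly but mostly one way. Of 48 cytosolic ribosomal protein genes, none was past 2-fold and 40 lay below 0, with a median log2 ratio of -0.29. Of 49 respiratory chain genes 46 lay below 0 (median -0.35), and of 27 constitutive proteasome genes 26 did (median -0.31). The median over all genes was -0.03. In the ribosomal list 33 of the 48 genes had their lowest signal of the 5 arrays at 7 DAI, and in the respiratory list 26 of 49, against 19.5% of all genes. Atp5b, the beta subunit of ATP synthase, read 32486 at 3 DAI and 25249 at 7 DAI (-0.36), and Rps2, a protein of the small ribosomal subunit, read 36581 and 23658 (-0.63). Past 2-fold were Psmb1, a proteasome subunit, with 3906 and 1091 (-1.84), and Ndufb5, a subunit of complex I, with 1800.1 and 863 (-1.06).

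Folding enzymes and sterol synthesis genes lay lower as well. Of 22 endoplasmic reticulum stress genes 7 were lower and 1 higher. Calr, a calcium-binding chaperone of the endoplasmic reticulum, went from 2495 to 843 (-1.56) and Pdia4, a disulfide isomerase, from 1757 to 632 (-1.48). Of 16 cholesterol synthesis genes 4 were lower, and Cyp51, a demethylase of that pathway, went from 254 to 114 (-1.16). Mt1, a metallothionein that binds zinc, had 9175, 18911, 8749, 12896 and 8476 at 0, 3, 7, 11 and 21 DAI (-1.11), and Gpx3, a secreted glutathione peroxidase, had 391, 1423, 327, 274 and 394 (-2.12). The higher genes included Slc2a3, a glucose transporter, from 4118 to 10937 (1.41), and Txnip, which limits glucose uptake, from 5212 to 12583 (1.27). Among 15 endothelial genes 2 were higher and 2 lower, with Lyve1, a hyaluronan receptor of lymphatic and sinusoidal cells, at 23.9 and 264 (at least 2.04). Of 6 muscle genes above the floor, Myl2, a myosin light chain, was higher, with 272, 101, 418, 39.2 and 171 (2.05), while 13 others were under it on both arrays.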
